A study of Mus musculus with 9 samples.

Results

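The genes described here are the interferon-inducible Ifi200 genes of mouse chromosome 1 and their neighbour Aim2. The members were given by symbol as Ifi203, Ifi204, Ifi206, Ifi208, Ifi209, Ifi213, Ifi214, Mndal, Mnda and Aim2, 10 symbols in all. Of these, 9 matched 1 of the 37022 genes with a row in the tables, and 8 were among the 15942 genes whose signal was high enough to be tested. Mnda is not a symbol of the GENCODE M21 annotation used for the match; RefSeq lists it as a synonym of Ifi211, and Ifi211 is given below with the other family genes. Ifi204 matched but was too low to be tested. The set was chosen by its symbols with the gene-body signal of these 9 libraries in the chronic against acute and MEK-inhibited against chronic comparisons already known, so the values below are a description of the members. No p-value of a member is given, and how many of them the fit over all genes called is counted as part of that description.

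The cells were mouse CD8+ T lymphocytes, which kill infected and malignant cells and lose function, a state called exhaustion, when their stimulation goes on too long. There were 3 libraries in each of 3 groups: acutely stimulated cells (labelled Acute), chronically stimulated cells (Chronic) and chronically stimulated cells in which MEK, the kinase that activates ERK, was inhibited (ChronicMEKi). Live cells of every group were given 0.2 mM 5-ethynyl uridine for 30 minutes, and RNA that had taken up the label was captured and sequenced. The mouse strain, its age, the stimulus, its duration and the identity and dose of the inhibitor are not given in the sources used here, nor is it stated that the replicates came from separate animals or cultures, so that p-values measure only the spread between these libraries, which may be technical.

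The Ifi200 proteins belong to the PYHIN family. Most members join a pyrin domain, which binds other pyrin domains, to a HIN domain, which binds DNA. AIM2, the best-known member, binds double-stranded DNA in the cytosol and recruits the adaptor ASC and caspase-1 into an inflammasome, the complex that matures interleukin-1 family cytokines and opens gasdermin D pores. The other mouse genes arose by repeated local duplication, many respond to type I or type II interferon, and for most of them the function in T cells is poorly known. Interferon induction runs through the receptors, JAK kinases and STAT and IRF factors to response elements near the gene start.

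The start regions of 6 members are shown because they carry the sequence most of the cluster shares, a 10-base core close to the start, aligned here at the same place of each window. The core is identical in 5 of the 6, and in Ifi209 its last 9 bases are shared. The capitals mark the core or its aligned place, and each line reads 5′ to 3′ on the gene's own strand, from RefSeq on GRCm38.p6. The positions are chr1:173491334-173491398 for Ifi206, chr1:173599321-173599385 for Ifi213, chr1:173536012-173536076 for Ifi214 and chr1:173942503-173942567 for Ifi203, all on the minus strand. Ifi208 is at chr1:173673567-173673631 and Ifi209 at chr1:173630740-173630804, both on the plus strand. None of the 6 windows lies in an annotated exon.
Ifi206: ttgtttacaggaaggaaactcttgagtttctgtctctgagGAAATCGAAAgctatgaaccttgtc
Ifi208: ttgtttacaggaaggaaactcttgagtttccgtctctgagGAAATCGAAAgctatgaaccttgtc
Ifi213: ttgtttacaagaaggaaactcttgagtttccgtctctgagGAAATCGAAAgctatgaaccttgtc
Ifi214: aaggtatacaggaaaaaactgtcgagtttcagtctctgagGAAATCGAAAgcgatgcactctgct
Ifi209: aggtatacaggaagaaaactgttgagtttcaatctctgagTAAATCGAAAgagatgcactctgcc
Ifi203: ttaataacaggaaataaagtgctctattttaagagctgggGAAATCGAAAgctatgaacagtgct

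The first base of the core lay at -40 from the RefSeq start in Ifi206, -58 in Ifi208, -73 in Ifi213, -79 in Ifi214, -79 in Ifi209 and -35 in Ifi203. Ifi203 and Mndal each have another RefSeq start, and the 250 bases before it hold no core. The Ifi203 row used for the values below begins at 173942672, upstream of the printed Ifi203 window, which therefore lies inside that row. The Mndal window, whose core began at -36, was the same as that of Ifi203 at 65 of 65 bases and is not printed, since it lies in an annotated Mndal exon. Over the 250 bases before the start, the members fell into sets of near copies. Ifi208 was 92.4% identical to Ifi206 and 93.2% to Ifi213, Ifi214 was 94.8% identical to Ifi209, and Mndal was 93.2% identical to Ifi203. That last value is for the starts whose windows hold the core. Identity is given as identical bases over all 250, so windows that align only in part score low. Pairs with another start of Mndal or Ifi203 had 23.2%, 8.0% and 0.8% by this measure. In them 58 of 59, 20 of 20 and 2 of 2 aligned bases were identical. Pairs across these sets were at most 59.2% identical by the same measure. Some of them aligned over few bases, as did Ifi206 and Ifi203 with 4, although the printed windows of these 2 genes share 43 of 65 bases.

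Searches on both strands of the 250 bases before each RefSeq start put numbers on how rare these letters are. The pattern of an interferon-stimulated response element, spelled GAAA, then any 2 bases, then GAAA again, was in 978 of 32851 promoters (2.98%) and in 7 of the 10 windows of 8 members, which belong to 6 members. AAATCGAAA, chosen after the member sequences had been seen and overlapping the first pattern in 6 of those windows, was in 35 of 32851 (0.107%) and in 7 of 10 member windows. TGANTCA, the AP-1 pattern, was in 6.75% of promoters and in 5 of 10 member windows, which belong to 3 members (Ifi209, Mndal and Ifi203) and in which the 2 windows of Ifi203 hold the same site. TTCNNNGAA, the STAT pattern, was in 7.02% of promoters and 0 of 10. The Aim2 promoter held none of the 4. Among family genes that are not members, Ifi207 held both of the first patterns, Ifi211 and Ifi205 the first alone, and Ifi202b neither. Since the member windows include sets of near copies, their matches are not independent, and 7 of 10 does not count separate promoters. A match describes letters and was not tested as a binding site.

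Gene-body signal is the authors' normalized sum over a transcript after its start region, scaled here between libraries. Deposited gene-body totals ranged from 48600000 to 52220000 over the 9 libraries, but because the deposited values are rescaled, their depth in reads is unknown and low values carry no counting interval. CD8 T cell markers were present throughout: all 8 were tested, and their summed signal was 35430 to 43330 in acute, 24660 to 25030 in chronic and 33780 to 36280 in MEK-inhibited libraries, with Cd8a at 3694 to 4388, 841.3 to 1184 and 2609 to 3099. Of 7 myeloid markers 2 were tested, with a sum of 189.6 to 259.0, 138.2 to 202.3 and 107.7 to 281.5; Lyz2 reached at most 8.582 and Cd14 at most 9.784 in any library. The sum of 5 B cell markers, 2 of them tested, was 539.6 to 571.1, 191.5 to 221.7 and 162.2 to 439.4, Cd4 was 387.5 to 501.2, 145.5 to 347.7 and 102.2 to 142.6, and Siglech and Tcf4, the plasmacytoid dendritic pair, summed to 767.6 to 961.2, 541.1 to 767.2 and 352.4 to 428.7. The 2 natural killer markers, neither of them tested, summed to 7.955 to 19.42, 19.32 to 35.34 and 32.61 to 54.77. The B cell, CD4 and Tcf4 signal was thus higher in acute than in chronic libraries, as was that of the Ifi200 genes, and its part in their values was not tested. In bulk samples, fewer cells making an RNA and less of it per cell cannot be told apart.

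Between acute and chronic libraries 7 Ifi200 genes were lower in chronic cells, to between 1.149% (Ifi208) and 12.09% (Mndal) of the acute level, while Aim2, which ends 2.445 kb from the end of Ifi206, was at 120.4%. With MEK inhibition Ifi203 and Mndal stood at 32.2% and 52.73% of the acute level and the other 5 genes at 7.642% to 13.47%. The summed signal of the 8 members other than Aim2 was 6695, 5665 and 6327 in the acute libraries, 394.4, 325.3 and 218.2 in the chronic libraries and 1222, 1102 and 997.4 in the MEK-inhibited libraries. The groups of this sum do not overlap. Its mean was 5.019% of acute in chronic and 17.77% in MEK-inhibited cells, and Ifi206 alone supplied 43.3% of it in acute cells.

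**Figure D1:**
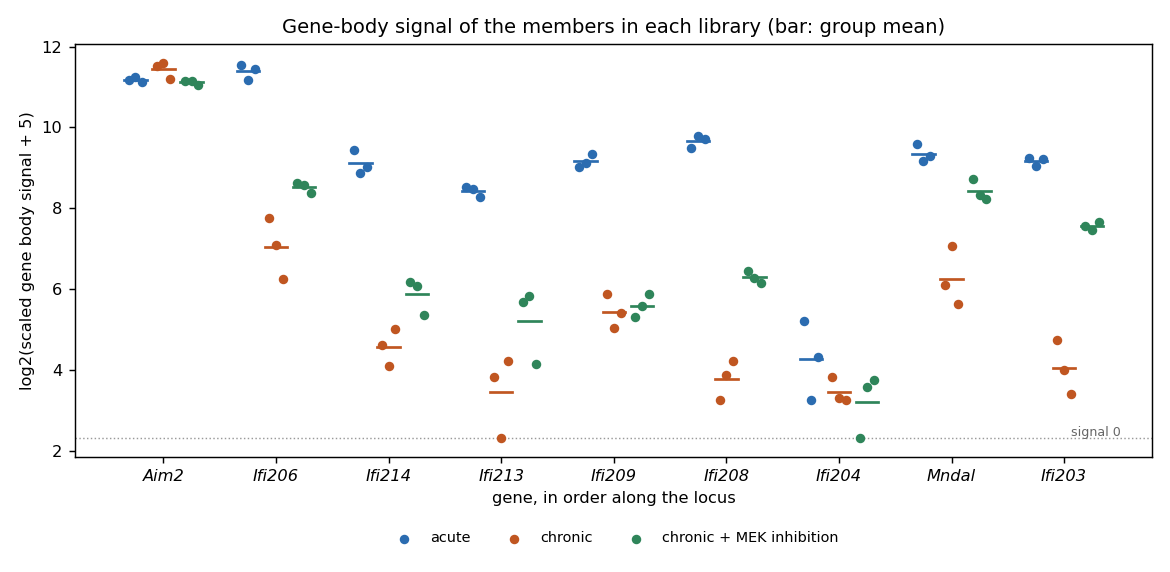
Gene-body signal of the 9 matched members, in order along the locus, as log2(scaled signal + 5) in each of 9 libraries; points are libraries and bars are group means. Chronic points lie below acute points for every gene but Aim2 and Ifi204, and the Aim2 groups stay close together.

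Ifi206 (ENSMUSG00000037849.8, chr1:173468485-173491041, minus strand), a PYHIN gene of unclear function, was the most transcribed of the cluster. Its gene-body signal was 3000.0, 2312 and 2803 in acute, 213.2, 130.9 and 71.61 in chronic, and 389.6, 377.6 and 325.4 in MEK-inhibited libraries. The 3 groups do not overlap, with MEK-inhibited cells between the others and much nearer to chronic. The log2 fold change was -4.36 for chronic against acute, 1.49 for MEK-inhibited against chronic and -2.87 for MEK-inhibited against acute (SE 0.28 each, limma, on log2(signal + 5)).

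Ifi208 (ENSMUSG00000066677.12, chr1:173673680-173698395, plus strand), whose start region nearly copies that of Ifi206, had 720.7, 885.6 and 830.0 in acute, 4.56, 9.784 and 13.64 in chronic and 81.81, 72.94 and 66.35 in MEK-inhibited libraries. No value of one group reached another. In the same order of comparisons, the log2 fold changes were -5.88, 2.51 and -3.38 (SE 0.38). With 0.5 or 20 added in place of 5 the first was -6.49 or -4.83 and the second 3.03 or 1.68. The first was the lowest of all 15942 genes tested, a rank that belongs to the values by which the genes were chosen.

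Ifi213 (ENSMUSG00000073491.11, chr1:173566283-173599074, minus strand), the third of these near copies, had 365.8, 348.7 and 303.7 in acute, 9.12, 0 and 13.64 in chronic and 46.17, 51.49 and 12.64 in MEK-inhibited libraries. Acute libraries stood apart from both other groups, and MEK-inhibited replicate 3 fell within the chronic values. In log2 fold change this gave -4.97, 1.76 and -3.21 (SE 0.60), values that depend on the 5 added before the logarithm: with 0.5 the first 2 were -6.38 and 2.96, and with 20 they were -3.73 and 0.99.

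Ifi214 (ENSMUSG00000070501.14, chr1:173519717-173535957, minus strand) had 690.9, 466.7 and 513.2 in acute, 19.38, 12.23 and 27.28 in chronic and 67.23, 62.65 and 35.81 in MEK-inhibited libraries. The groups do not overlap, although the gap between MEK-inhibited and chronic libraries is narrow. Its log2 fold changes were -4.54, 1.29 and -3.25 (SE 0.41).

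Ifi209 (ENSMUSG00000043263.13, chr1:173630917-173647928, plus strand), for which RefSeq gives the synonym Pyhin1, had 516.1, 554.8 and 649.3 in acute, 53.58, 28.13 and 37.51 in chronic and 34.83, 42.91 and 53.71 in MEK-inhibited libraries. Here the chronic and MEK-inhibited values interleave, and both lie far below acute. The log2 fold changes were -3.73, 0.15 and -3.58 (SE 0.36). Its near copy at the promoter, Ifi214, shares 7.29% of its own 100-base transcript stretches with Ifi209, and 16.87% of those of Ifi209 occur in Ifi214, so that reads from their exons may have been split between them.

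Ifi203 (ENSMUSG00000039997.16, chr1:173920407-173942672, minus strand) had 597.6, 525.7 and 595.7 in acute, 21.66, 11.01 and 5.683 in chronic and 183.9, 171.6 and 198.0 in MEK-inhibited libraries. The groups do not overlap, and the chronic values vary most in proportion. Its fold changes on the log2 scale were -5.12, 3.51 and -1.61 (SE 0.36), the first 2 being -5.62 and 3.99 with 0.5 added and -4.20 and 2.67 with 20 added. A long Mndal gene model runs through Ifi203 on the same strand, and signal over their common part cannot be assigned to one of them.

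Mndal (ENSMUSG00000090272.8, chr1:173857220-173880305 for the row used, minus strand), named for its likeness to the human myeloid nuclear differentiation antigen, had 771.8, 566.8 and 617.7 in acute, 63.84, 128.4 and 44.33 in chronic and 418.8, 315.8 and 297.0 in MEK-inhibited libraries. MEK-inhibited libraries lay above every chronic and below every acute library. The log2 fold changes were -3.09, 2.17 and -0.92 (SE 0.32), so that Mndal was the member with the smallest difference between MEK-inhibited and acute cells apart from Aim2 and the untested Ifi204.

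Ifi204 (ENSMUSG00000073489.6, chr1:173747293-173766919, minus strand), which encodes p204, a DNA sensor and regulator of differentiation studied in macrophages, was low everywhere. Its signal was 32.37, 4.64 and 15.12 in acute, 9.12, 4.892 and 4.547 in chronic and 0, 6.865 and 8.426 in MEK-inhibited libraries. These groups overlap, and no fold is given.

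Aim2 (ENSMUSG00000037860.15, chr1:173350879-173466040, plus strand) had 2322, 2405 and 2243 in acute, 2931, 3099 and 2361 in chronic and 2262, 2275 and 2123 in MEK-inhibited libraries. Acute and chronic values overlap, because chronic replicate 3 lies within the acute range, while the 3 MEK-inhibited values lie below every chronic value. The log2 fold changes were 0.26, -0.32 and -0.07 (SE 0.11). The sign of the first depended on scaling: it was -0.23 with library totals and -0.22 on the deposited scale, where the median of all genes itself moved by -0.49 and -0.47. With library totals that left out ribosomal RNA-like rows, the first was 0.1 and the median of all genes moved by -0.16. The row used begins far upstream and overlaps Cadm3 on the opposite strand. A shorter Aim2 row, which begins at 173420598, had a gene-body signal of 1877 ± 107.1 in acute, 2315 ± 342.9 in chronic and 1882 ± 113.2 in MEK-inhibited cells (SD, n = 3), with chronic again highest and acute and MEK-inhibited means close together.

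Among the 8 tested members, 7 were called lower in chronic than in acute libraries (limma, Benjamini-Hochberg adjusted p under 0.05), where 15.9% of all genes tested were called lower. The same 7 had chronic values all below the acute values, as had 21.9% of all genes. With MEK inhibition against chronic, 5 were called higher, namely Ifi203, Ifi206, Ifi208, Ifi214 and Mndal, and 0 lower, where 9.93% of all genes were called higher and 7.65% lower. The call of Ifi214 was lost when any of acute replicates 1, 2 and 3, chronic replicates 1 and 2 or MEK-inhibited replicates 1 and 2 was left out. Ifi213 was called higher when chronic replicate 3 or MEK-inhibited replicate 3 was left out (2.16 and 2.31) and under library totals and on the deposited scale (1.77 and 1.79). Aim2 was called lower without any one of the acute replicates, chronic replicate 3 or MEK-inhibited replicate 1 (-0.38 to -0.44). Against acute, MEK-inhibited libraries had 7 members called lower and 0 higher, beside 11.5% and 14.4% of all genes, and leaving out acute replicate 1, acute replicate 3, MEK-inhibited replicate 2 or MEK-inhibited replicate 3 ended the call of Mndal. Without acute replicate 1, and likewise without acute replicate 3, 4 of 6 tested members were called. Aim2 was called lower here under library totals and on the deposited scale (-0.45 and -0.41), and higher in chronic than in acute cells without chronic replicate 3 (0.38). Since these contrasts share libraries and were known when the genes were chosen, nothing is read from the counts. Ifi209 and Ifi213 passed the filter on low signal through their acute libraries alone. Ranked by chronic against acute fold change from the lowest, Ifi203 stood 6th, Ifi213 7th, Ifi214 9th, Ifi206 11th, Ifi209 34th and Mndal 77th, and Aim2 stood 10859th.

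**Figure D2:**
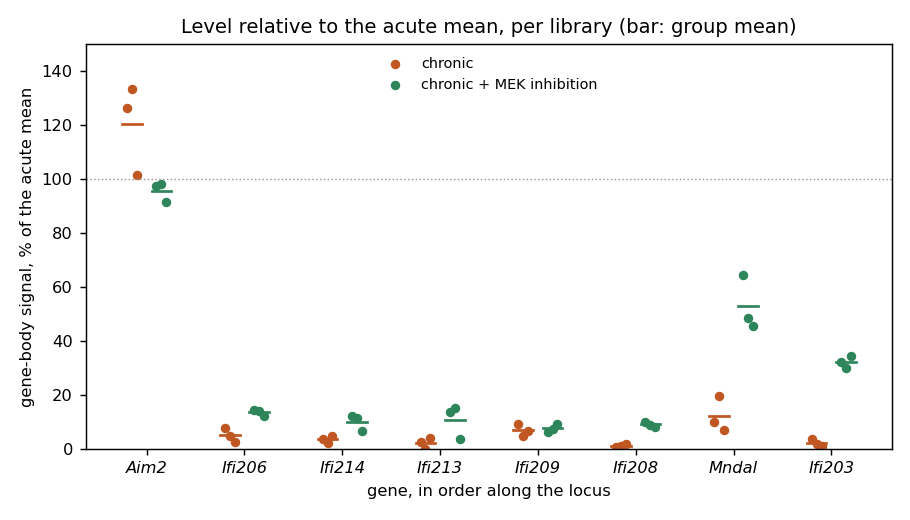
Gene-body signal of the 8 tested members in each chronic and MEK-inhibited library as a percentage of that gene's acute mean; bars are group means and the dotted line is 100%. Mndal and Ifi203, at the right, hold the highest MEK-inhibited means of the Ifi200 genes, 52.73% and 32.2%, and Ifi209 has nearly the same mean in both groups.

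Set out by their start regions, the members had these MEK-inhibited levels. The Ifi203 and Mndal pair stood at 32.2% and 52.73% of acute. Ifi206, Ifi208 and Ifi213, the set with start regions 85.6% to 93.2% identical, stood at 13.47%, 9.076% and 10.83%, and Ifi214 and Ifi209 at 9.917% and 7.642%. These sets were formed after the levels were known, and also differ in place, Ifi203 and Mndal lying at the far end of the cluster from Aim2.

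Levels of different genes were compared as signal per kilobase of the row used. In acute cells Ifi206 led with 119.9 ± 15.7 per kb (SD, n = 3). Ifi214 (34.29 ± 7.285), Ifi209 (33.71 ± 4.028), Ifi208 (32.86 ± 3.395), Mndal (28.25 ± 4.625) and Ifi203 (25.73 ± 1.842) followed, each within the SD of its neighbour in this order. Aim2 (20.17 ± 0.7049), Ifi213 (10.35 ± 0.9788) and Ifi204 (0.8854 ± 0.7136) came last, each further from the gene above it than their SDs. In chronic cells Aim2 led with 24.29 ± 3.359, ahead of Ifi206 (6.142 ± 3.152) and Mndal (3.416 ± 1.906), and the other genes lay between 0.2314 (Ifi213) and 2.336 (Ifi209). With MEK inhibition Aim2 (19.28 ± 0.7293), Ifi206 (16.15 ± 1.512) and Mndal (14.89 ± 2.84) were highest, Ifi203 followed with 8.286 ± 0.5927, and the others lay at or under 3.401 (Ifi214). The place of Aim2 depends on its row. The row used spans 115.2 kb and had means of 2323, 2797 and 2220 in acute, chronic and MEK-inhibited cells. The shorter row, from 173420598 to 173459719, had 1877, 2315 and 1882. Over that row the Aim2 signal per kb is higher in each group, and Aim2 is not among the last genes in acute cells.

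**Figure D3:**
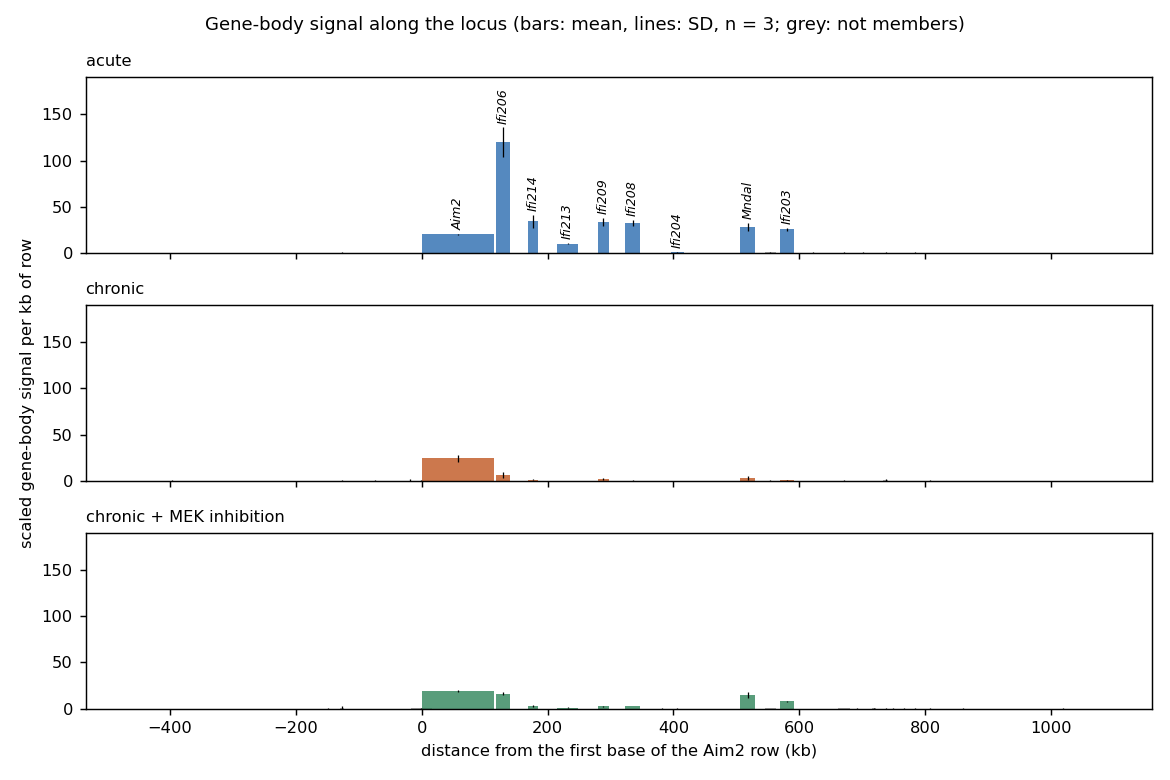
Mean scaled gene-body signal per kb (bars, with SD, n = 3) along the locus, by distance in kb from the first base of the Aim2 row, in acute, chronic and MEK-inhibited cells. Bar width is the length of the row. Over its 115.2 kb row Aim2 has 20.17, 24.29 and 19.28 per kb in the 3 panels. The Ifi200 bars are tallest in the acute panel, and neighbouring genes are near 0 throughout.

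The members span 591.8 kb. Within 500 kb on either side and between them lie 29 other protein-coding genes, 18 of them olfactory receptors, and 0 of the 29 had enough signal to be tested, the highest group mean among them being 20.07. Other Ifi200 genes were low as well. Ifi202b had 11.91 ± 10.53 in acute cells and was listed at 0 in the 3 chronic libraries, and Ifi205, Ifi207, Ifi211 and the pseudogene Ifi203-ps had group means between 3.368 and 15.01. Of the 100-base stretches of the Ifi211 transcripts, 56.88% occur in other Ifi200 genes, so its level is uncertain. The Aim2 transcripts share none with the family.

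The pattern held over the alternative transcript rows of each gene, which overlap and are not independent. In rows with an acute mean of at least 100, chronic signal was 2.041% to 2.672% of acute over 8 Ifi203 rows, 0.8988% to 1.149% over 3 Ifi208 rows, 1.4% to 2.235% over 4 Ifi213 rows and 3.066% to 4.426% over 4 Ifi214 rows. It was 6.248% to 6.931% over 2 Ifi209 rows, 9.016% to 17.3% over 8 Mndal rows and 112.0% to 129.9% over 5 Aim2 rows. MEK-inhibited signal was 31.93% to 35.25% of acute over the Ifi203 rows, 46.91% to 67.7% over the Mndal rows and at most 13.7% in those of Ifi208, Ifi209, Ifi213 and Ifi214.

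The pause region is the authors' second table, a sum of signal near the transcript start, where RNA polymerase II often halts before it is released into the gene. Ifi206 had 190.4, 214.1 and 230.9 in acute libraries, 0, 2.446 and 0 in chronic libraries and 21.87, 30.04 and 24.22 in MEK-inhibited libraries. Ifi208 had 61.51, 113.4 and 104.4 in acute libraries, was listed at 0 in the 3 chronic libraries, and had 4.86, 5.149 and 16.85 with MEK inhibition. Ifi213 had 92.59, 102.7 and 98.94, then 0 in each chronic library, then 22.68, 9.44 and 5.266. Of the 9 chronic values of these near copies, 8 were thus 0.

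Ifi209 kept more signal in this region with MEK inhibition. It had 25.9, 28.5 and 51.53 in acute, 0, 0 and 4.547 in chronic and 11.34, 21.45 and 31.6 in MEK-inhibited libraries, so that acute and MEK-inhibited values overlap. Its MEK-inhibited mean was 60.78% of acute in the pause region against 7.642% in the gene body. The log2 ratio of pause region to gene body, with 0.5 added to each, was -4.06 ± 0.365 in acute, -5.17 ± 2.008 in chronic and -1.11 ± 0.424 in MEK-inhibited cells (SD, n = 3), beside medians over the genes tested of -5.03, -4.66 and -4.55. Ifi206, for comparison, had -3.67 ± 0.279 in acute and -3.83 ± 0.263 in MEK-inhibited cells, and Ifi214, the near copy of Ifi209, had -4.70 ± 1.061 and -3.05 ± 1.114, with a MEK-inhibited mean at 35.3% of acute in the pause region against 9.917% in the gene body. The Ifi209 values were singled out after they had been seen and rest on low signal.

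In the rows used, Ifi214, Mndal and Ifi203 had little start-region signal. Acute means were 23.82 ± 16.33, 17.86 ± 5.898 and 13.0 ± 7.879, MEK-inhibited means were 8.408 ± 8.854, 4.195 ± 3.585 and 3.948 ± 1.943 (SD, n = 3), and the highest chronic library held 7.957, in Mndal. Ifi203 was listed at 0 in the 3 chronic libraries. For Aim2 the row used was at 0 in all but MEK-inhibited replicate 2 (1.716), and the shorter row had 122.2 ± 44.33 in acute, 219.2 ± 29.58 in chronic and 146.3 ± 55.3 in MEK-inhibited cells, with chronic libraries (185.8 to 242.2) above every acute library (91.3 to 173.0).

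**Figure D4:**
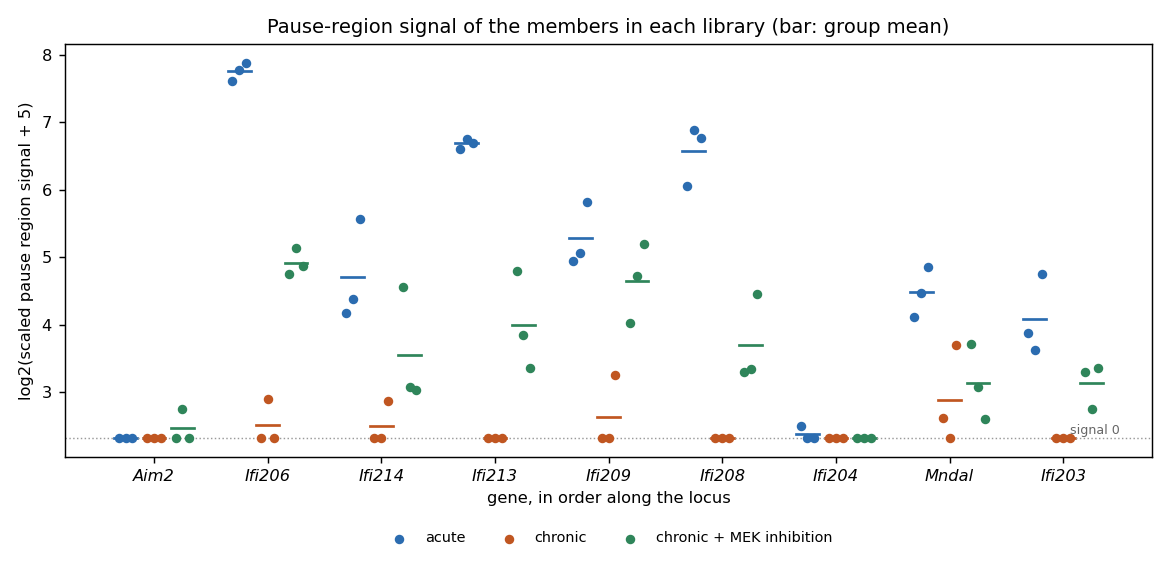
Pause-region signal of the 9 matched members as log2(scaled signal + 5) in each library, in order along the locus; points are libraries, bars are group means and the dotted line marks a signal of 0. Ifi206, Ifi213 and Ifi208 are highest in acute libraries, and most chronic points lie at 0.

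Across the 9 libraries the 21 pairs of tested Ifi200 genes had Pearson correlations of log2 gene-body signal from 0.689 (Ifi209 with Mndal) to 0.983 (Ifi213 with Ifi214), and Ifi203 with Mndal had 0.959. Pairs with Aim2 had -0.644 to -0.306. These libraries share 3 groups, so the correlations describe the group pattern. The genes elsewhere in the genome whose log2 signal was most like that of Ifi208 were Tlr1 (r = 0.9951), S1pr1 (0.9949), Ifi47 (0.9932), Cmtm6 (0.9931) and Sh3bp5 (0.9919). This ranking, like that for Ifi203 below, left out Gm, Rik and LOC symbols, and r does not weigh the size of a change. Cmtm6, for one, had 4367 ± 114.0 in acute, 1885 ± 156.7 in chronic and 2878 ± 35.52 in MEK-inhibited cells (SD, n = 3). Tlr1, a receptor for bacterial lipopeptides, had 1483 ± 119.4 in acute, 68.68 ± 2.796 in chronic and 262.6 ± 13.56 in MEK-inhibited cells (SD, n = 3), and S1pr1, the receptor by which lymphocytes leave lymphoid tissue, had 4780 ± 387.6, 350.1 ± 69.28 and 887.1 ± 71.02. Those most like Ifi203 were Rhoh (0.9961), Eif4e3 (0.9934), Sidt1 (0.993), Isg20 (0.9925) and Sorl1 (0.9899). Rhoh, an atypical GTPase of T cell receptor signalling, had 13170 ± 442.0, 3084 ± 339.5 and 7782 ± 185.5. Ifi47, Sh3bp5, Eif4e3, Sidt1 and Sorl1 overlap other annotated genes, with which their signal may be shared.

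Lists of related pathways place the members beside genes taken from general knowledge of those pathways, though with earlier results of these data known. Of 18 tested genes for inflammasomes and DNA sensing, 7 were lower and 2 higher in chronic than in acute cells, with a median log2 fold change of -0.34 beside -0.02 over all genes, where 33.9% were called in either direction. Under library totals, which moved the median of all genes by -0.49, 14 were lower and 0 higher. Nlrp1b, an inflammasome sensor, fell from 480.2 ± 69.5 to 48.51 ± 16.02 (SD, n = 3; log2 fold change -3.22, SE 0.32, limma adjusted p 3.473e-07). Zbp1, a sensor of left-handed nucleic acids, fell from 1289 ± 73.38 to 225.3 ± 53.37 (-2.51, SE 0.20, limma adjusted p 1.679e-08), and Samhd1, which removes nucleotides, fell from 10670 ± 1248 to 2967 ± 175.1 (-1.84, SE 0.10, limma adjusted p 1.058e-10). Dnase2a, a lysosomal nuclease that overlaps Mast1, changed by -1.35 (SE 0.29, limma adjusted p 0.001213). The AIM2 partners Pycard (-0.36, SE 0.24, limma adjusted p 0.2691) and Casp1 (-0.45, SE 0.46, limma adjusted p 0.485) did not pass the test, which does not show that they were equal.

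With MEK inhibition against chronic cells, 5 genes of this list were higher and 0 lower, with a median of 0.19 beside 0.04 over all genes, where 17.6% were called in either direction. Zbp1 was 1.61 higher on the log2 scale (limma adjusted p 1.116e-05), Samhd1 1.54 (3.603e-09), Nlrp1b 1.45 (0.003719) and Ikbke, a kinase that phosphorylates IRF factors and overlaps other genes, 0.90 (0.0002636). Against acute cells 3 were higher and 6 lower, 1 and 11 under library totals, and 2 and 3 without MEK-inhibited replicate 2 and likewise without replicate 3. In that comparison 25.8% of all genes were called with the scaling used here, and library totals moved the median of all genes by -0.38. Nlrp1b was at -1.77 (limma adjusted p 0.0004489), Casp8, a caspase of cell death that overlaps Gm37760, at -1.42 (6.649e-09) and Zbp1 at -0.91 (0.002391). Cgas, the sensor of cytosolic DNA, which overlaps Gm8093, was higher by 0.97 (limma adjusted p 4.708e-06); it was also higher in chronic than in acute cells (0.76, limma adjusted p 4.677e-05), and MEK-inhibited against chronic cells gave 0.21 (limma adjusted p 0.2504).

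Of 19 interferon signalling genes, all tested, 11 were lower and 1 higher in chronic than in acute cells, with a median of -0.73. Of all genes tested, 15.9% were called lower and 33.9% in either direction. Ifngr2, a chain of the interferon gamma receptor, fell from 2730 ± 353.1 to 396.8 ± 5.879 (-2.76, SE 0.14, limma adjusted p 5.213e-11) and stood at 2115 ± 346.1 with MEK inhibition (2.39 against chronic, limma adjusted p 1.155e-09). Ifnar2, a chain of the type I receptor that overlaps Gm21970, fell by 1.93 (SE 0.14, limma adjusted p 1.584e-08) and was 1.71 higher with MEK inhibition than in chronic cells (limma adjusted p 1.878e-07). Irf7, a factor that drives interferon genes and overlaps Phrf1, fell by 1.74 (SE 0.44, limma adjusted p 0.004764) and was 1.43 higher with MEK inhibition than in chronic cells (limma adjusted p 0.03025). Irf4, an IRF factor induced by T cell receptor signals, was the gene that rose, from 9558 ± 372.1 to 42970 ± 3249 (2.17, SE 0.08, limma adjusted p 1.144e-12), and it fell by 1.47 with MEK inhibition (limma adjusted p 5.74e-10). In all, 12 of the 19 were higher with MEK inhibition than in chronic cells and 2 lower, with a median of 0.66. Beside them, 9.93% of all genes were called higher and 7.65% lower. Against acute cells 3 were higher and 4 lower, beside 14.4% and 11.5% of all genes. Under library totals, which moved the median of all genes by -0.38, 1 was higher and 10 were lower. Without chronic replicate 3, which enters the shared estimate of the spread, 5 were higher and 6 lower. Irf4 was 0.70 higher with MEK inhibition than in acute cells (limma adjusted p 3.518e-06). In the same comparison Jak1, a kinase of the receptors, Irf2 and Irf9, all overlapping other genes, were at -0.57, -0.56 and -0.46.

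Of 21 tested interferon-stimulated genes on a list of 30, 14 were lower and 1 higher in chronic than in acute cells, with a median of -0.97. Of all genes tested, 15.9% were called lower and 33.9% in either direction. With MEK inhibition 11 were higher than in chronic cells and 0 lower, with a median of 0.59, where 9.93% of all genes were called higher; with no filter on low signal 7 of 30 were higher. Against acute cells 2 were higher and 9 lower, beside 14.4% and 11.5% of all genes, with a median of -0.59. Isg20, an exonuclease, fell from 877.0 ± 86.68 to 66.51 ± 18.52 (-3.66, SE 0.26, limma adjusted p 3.067e-09) and was at 379.4 ± 73.23 with MEK inhibition (2.44 against chronic, limma adjusted p 1.445e-06). Xaf1, a pro-apoptotic factor, fell by 1.85 (SE 0.17, limma adjusted p 7.106e-08), Rtp4, a chaperone of receptors that overlaps Masp1, fell by 1.87 (SE 0.48, limma adjusted p 0.005047) and Mx2, a dynamin-like GTPase, fell by 1.69 (SE 0.56, limma adjusted p 0.02633). Ifit2, an RNA-binding protein, had -0.16 between chronic and acute cells (SE 0.13, limma adjusted p 0.3857) and was 1.38 higher with MEK inhibition than in chronic cells (limma adjusted p 4.348e-07), as were Ifit1 by 2.29 (limma adjusted p 0.02019) and Cmpk2, a mitochondrial nucleotide kinase, by 1.53 (limma adjusted p 0.008604). Against acute cells Ifih1, a sensor of viral RNA, was at -1.42 and Isg20 at -1.21, while Ifit2 was 1.22 and Mx1 1.14 higher. No test of a list against other genes was made.

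**Figure D5:**
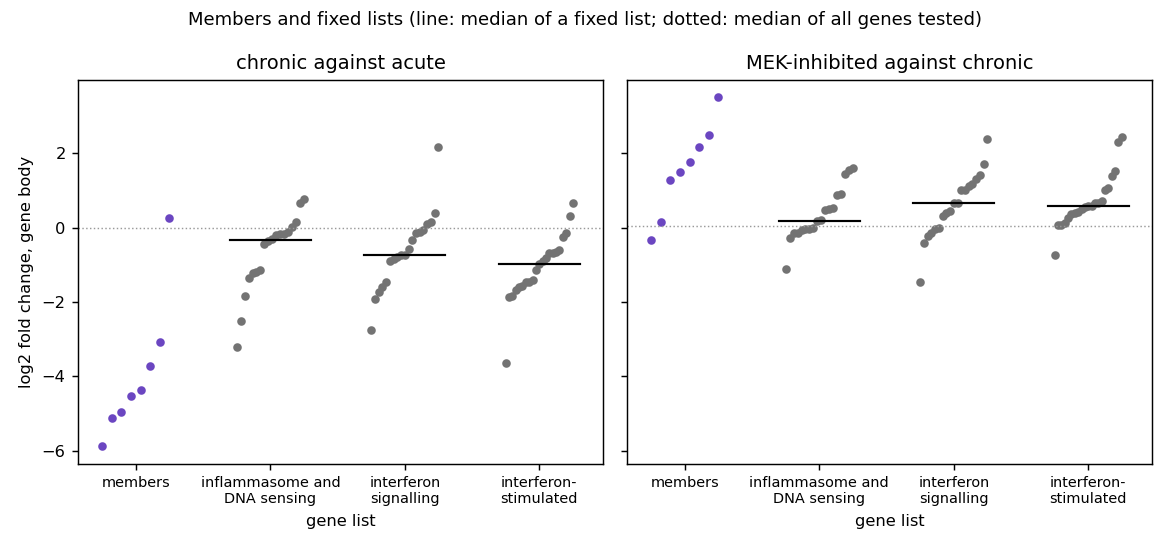
Gene-body log2 fold changes of the 8 tested members (left column of each panel) and of the tested genes of 3 lists, for chronic against acute and MEK-inhibited against chronic cells; points are genes, lines are list medians and the dotted line is the median of all genes tested. The members, chosen with these values known, reach -5.88 and 3.51, and the list medians lie below the dotted line on the left and above it on the right.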

How the data were processed

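The authors deposited 1 gene-body and 1 pause-region table of normalized signal over 118482 GENCODE transcripts for 9 libraries; 1 scale factor per library was applied to both, per the values, so a step (0.764 to 1.06) is not a read and depth is unknown. STAR 2.7.0a, Trim Galore 0.6.10, SAMtools 1.19.2 and mm10 are named in the submitters' processing notes; region bounds and strand handling are not given in the sources used here.

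Rows were matched to GENCODE M21 (117346 with version, 383 without, 753 unmatched), and 1 row, that of highest mean signal in the gene-body table, stood for each of 37022 genes. Scaling used a trimmed mean of log ratios without weights (30% of ratios and 5% of levels trimmed). Genes reaching 50 in 3 or more libraries were fitted in 1 limma 3.58.1 model (R 4.3.3) over 9 libraries on log2(signal + 5), with Benjamini-Hochberg adjustment, threshold 0.05; this was tested on simulated data. Because the values are signal and not counts, no count test was used. Sums and sequences were computed with Python 3.11.15 and pandas 2.3.3.

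All members were named with their values, with up to 4 called genes of largest change per list and comparison, and the 5 genes most like the 2 members of largest range; Pycard and Casp1 were added as AIM2 partners. Members and lists were chosen with earlier results of these data known. Alternatives covered scaling, pseudocount, filter, transcript row, replicate block and leaving out each library. One marker gene of the list is not reported here.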

Additional observations from a re-analysis of the deposited data

How the results depend on the processing

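The count of members called kept within 1.5 times its value in 49 of 51 alternatives. Leaving out each library, it ranged from 5 to 8 for chronic against acute, from 4 to 7 for MEK-inhibited against chronic and from 4 to 7 for MEK-inhibited against acute, where it was 4 of 6 tested without acute replicate 1 and likewise without acute replicate 3, 2 members no longer passing the filter and Mndal no longer being called. Single members kept direction and call in 360 of 390 alternatives. Reversals, none of them called, were Aim2 for chronic against acute (-0.232 with library totals and -0.215 on the deposited scale, values that differ by scaling) and Ifi209 for MEK-inhibited against chronic (-0.052 without chronic replicate 2, in a range of -0.052 to 0.36 over libraries left out; the cause was not tested). The call of Ifi214 for MEK-inhibited against chronic was lost in 9 alternatives and that of Mndal for MEK-inhibited against acute in 5; calls were gained for Ifi213 in MEK-inhibited against chronic in 4, and for Aim2 in 1 of chronic against acute, 6 of MEK-inhibited against chronic and 2 of MEK-inhibited against acute. The cause was not tested.

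The main fit did not pair libraries by replicate number. Correlations of same-numbered deviations ran from -0.53 to 0.098. Differently numbered libraries were not compared, so these values cannot show whether the replicates were paired. With the replicate block 7, 6 and 7 members were called in the 3 comparisons, the sixth being Aim2 (-0.324 for MEK-inhibited against chronic). Genes of the lists kept their counts within 1.5 times in 145 of 156 alternatives. Low values, as for Ifi204 and most chronic pause-region values, are limited by a depth that is unknown.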
